A study of Mus musculus with 228 samples.

Results

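The RNAs described here are 8 long noncoding RNAs named for their abundance in neurons: Meg3, Rian, Mirg, Miat, Snhg11, Malat1, Neat1 and Kcnq1ot1. They were named by gene symbol. Of the 8, 1 matched a gene row by symbol, Snhg11, among 22870 gene rows in all. The other 7 are not analysed here, so the results are those of Snhg11, and the share of nuclear RNA in the patched material could not be summed over the 8 RNAs.

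Long noncoding RNAs are transcripts that act as RNA or through their transcription rather than as templates for a long protein. Malat1 and Neat1 stay in the nucleus, where Malat1 gathers at nuclear speckles, the stores of splicing factors, and Neat1 builds paraspeckles. Meg3, Rian and Mirg come from the imprinted Dlk1-Dio3 domain, Kcnq1ot1 silences its imprinted neighbours, and Miat is a nuclear RNA of neurons that binds splicing factors. Snhg11 is a small nucleolar RNA (snoRNA) host gene: its spliced transcript surrounds introns from which snoRNAs are cut, and snoRNAs of the H/ACA class guide the conversion of uridine to pseudouridine in ribosomal RNA. In brain, Snhg11 RNA is known as a transcript of neurons.

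The cells came from the ventral hippocampus of mice aged 3 to 4 months, and each was drawn into a patch pipette from an acute slice and sequenced as its own library (patch-RNAseq). Granule cells (GC) of the dentate gyrus were marked through Calb1-Cre, and medial CA1 pyramidal neurons (CA1) through Nex-Cre, which means that the Cre line and the type of cell cannot be told apart. All mice had been injected 1 month earlier in the hippocampus with a Cre-dependent adeno-associated virus (AAV) for the green fluorescent protein EGFP. EGFP GC and EGFP CA1 cells had this virus alone, while Ascl4 GC and Ascl4 CA1 cells had been given a second AAV too, which carries Ascl4, a transcription factor of the basic helix-loop-helix class. No group had a second virus without Ascl4, so Ascl4 and the added virus cannot be told apart. The cells past the authors' quality control numbered 47 in EGFP GC and 51 in Ascl4 GC, and 46 in EGFP CA1 and 45 in Ascl4 CA1. Because the labels name neither animals nor batches, a group was treated as 1 sample. No test was run, and how far animals differ is unknown.

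Both annotations used place Snhg11 on chromosome 2 of GRCm38 and differ on what it is. GENCODE M21 puts the gene at chr2:158375638-158386145 on the plus strand, a span of 10508 bases, as a protein-coding gene with 5 transcripts. RefSeq puts it at chr2:158375713-158386474 and calls it a long noncoding RNA. Of the gene rows matched to GENCODE M21, 94.7% were annotated as protein coding. Within the gene, GENCODE M21 lists 2 snoRNAs, Gm25187 and Gm25129. Gm25129 lies in an intron of every Snhg11 transcript that spans it. Gm25187 lies in an exon of a transcript with a retained intron and in introns of the others that span it. How reads over both were assigned is not given in the sources used here. No other annotated gene overlaps Snhg11.

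**Figure D1:**
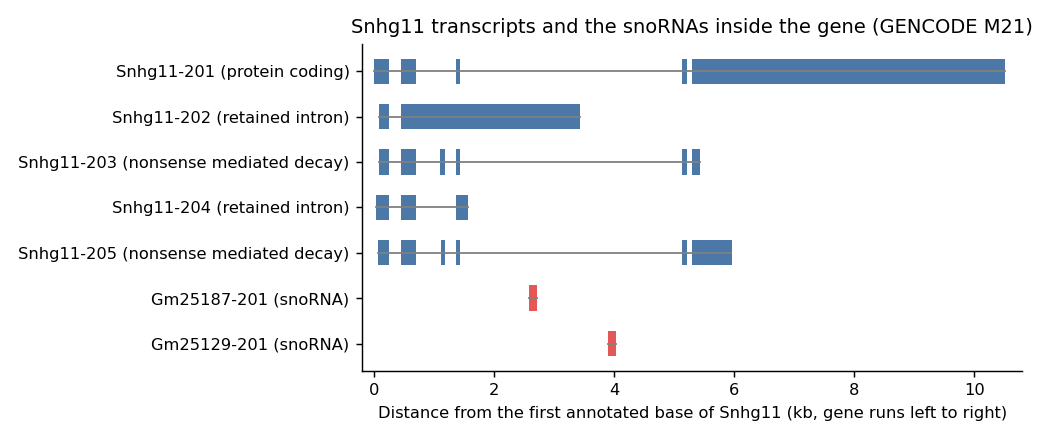
Transcripts of Snhg11 (blue exons joined by grey introns) and the 2 snoRNAs inside the gene (red), with distance from the first annotated base in kb on the x axis. The last exon of the longest transcript is 5207 bases long, and both snoRNAs lie before it.

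The snoRNAs are shown because they make Snhg11 a host gene. Capitals mark AGAGGA, which fits the H box ANANNA, and the closing ACA, letters known from H/ACA snoRNAs. The sequences are those of the GENCODE M21 transcripts, 5′ to 3′, on the plus strand, Gm25187 at chr2:158378222-158378354 and Gm25129 at chr2:158379534-158379666.
Gm25187: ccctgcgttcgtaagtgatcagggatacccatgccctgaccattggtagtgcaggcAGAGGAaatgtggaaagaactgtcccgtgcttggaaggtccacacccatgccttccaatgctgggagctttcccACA
Gm25129: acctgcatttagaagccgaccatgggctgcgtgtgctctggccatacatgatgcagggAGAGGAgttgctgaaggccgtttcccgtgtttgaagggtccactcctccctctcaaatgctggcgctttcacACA

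Ascl4 belongs to a family whose proteins bind, as dimers, the E-box CANNTG. The promoter is shown because cells with and without an Ascl4 virus are compared. The window of 300 bases around the RefSeq start (RefSeq, GRCm38.p6) holds 2 matches to CANNTG, a motif that reads as itself on both strands, and 39.6% of 32851 promoters of that length hold at least as many. At least 1 match is held by 72.3% of the promoters. The match nearer to the RefSeq start is at position -61. The start in GENCODE M21 lies 75 bases before that of RefSeq, so this match falls inside the GENCODE transcript. The GC content of the window was 60.0%, against a median of 52.7% over all promoters. A match describes these letters only, and binding was not measured. The first line gives the bases just before both starts at chr2:158375463-158375637, and the second gives the bases around the nearer match at chr2:158375640-158375669, both on the plus strand with the E-box in capitals.
Snhg11 upstream: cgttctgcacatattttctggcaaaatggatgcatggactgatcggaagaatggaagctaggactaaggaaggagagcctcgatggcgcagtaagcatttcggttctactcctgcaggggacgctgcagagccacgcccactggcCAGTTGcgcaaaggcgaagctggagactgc
Snhg11 nearer match: cgcgcgcagccgCAGCTGggcagacactgc

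Libraries held between 1077532 and 25442664 gene-assigned reads, with group medians of 3836149 to 4700602. Values are reads of a gene per 1000000 gene-assigned reads (CPM), for a cell or for the summed reads of a group. Ascl4 itself stood at 47.2 and 32.6 CPM in the summed reads of EGFP GC and EGFP CA1 and at 14111 and 9395 CPM in those of Ascl4 GC and Ascl4 CA1. The granule cell factor Prox1 had 175.3 and 156.2 CPM in EGFP GC and Ascl4 GC, and 0.240 and 7.78 CPM in EGFP CA1 and Ascl4 CA1. The CA1 factor Neurod6 had 319 and 94.2 CPM in EGFP CA1 and Ascl4 CA1, and 0.112 and 1.23 CPM in EGFP GC and Ascl4 GC. The title numbers of the cells fall into separate stretches, 3 in Ascl4 CA1 and 2 in each other group, which the labels do not call batches. Stretches were counted within each group, and no stretch is shared by groups. Where groups are compared by stretch, their stretches are paired by order alone. A library is the material in a pipette, so fewer cells of a type and less RNA per cell cannot be told apart for any marker of another cell.

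Snhg11 was an abundant RNA of CA1 neurons and a variable RNA of granule cells. In the 46 EGFP CA1 cells its level ranged from 13.6 CPM through a median of 3200 to 14593. In the 45 Ascl4 CA1 cells it ranged from 12 CPM through a median of 3141 to 12098. Few CA1 cells were low: in each CA1 group 2 cells were under 100 CPM and 7 under 1000 CPM. The lowest cell above 100 CPM was at 460 CPM in EGFP CA1 and 176.8 CPM in Ascl4 CA1. In the 47 EGFP GC cells the level ranged from 1.81 CPM through a median of 523 to 4257. In the 51 Ascl4 GC cells it ranged from 0.0958 CPM, which was 2 reads among 20876388, through a median of 117.7 to 4925. Every cell of the 4 groups had at least 1 read, and the groups overlapped.

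**Figure D2:**
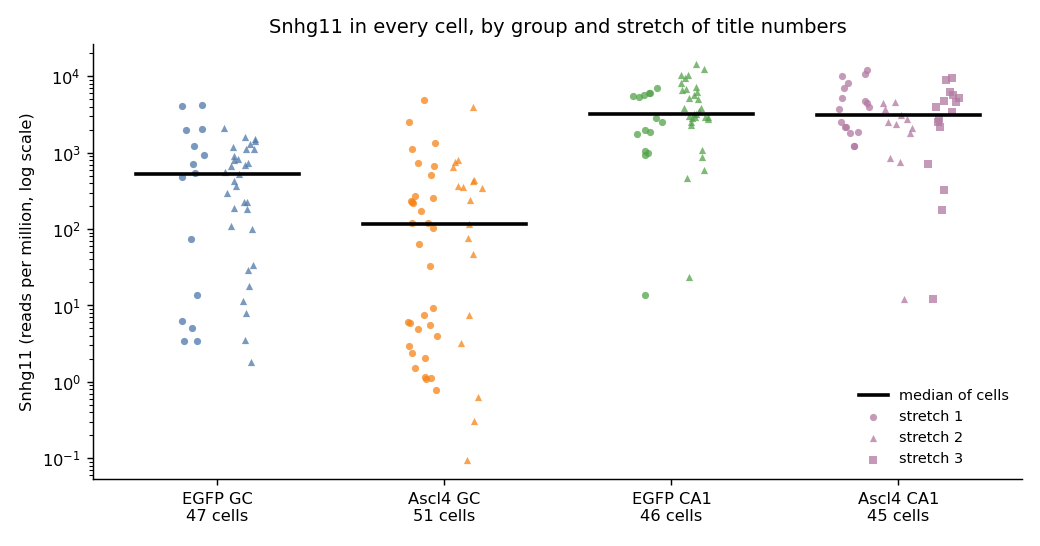
Snhg11 in each cell, in CPM on a log axis, by group, with black bars at the median of the cells and symbols for the stretches of title numbers. CA1 cells lie mostly above 1000 CPM, and granule cells spread down to 0.0958 CPM.

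By summed reads, the order of the groups was EGFP CA1 with 4460 CPM (95% exact Poisson interval 4451 to 4468), Ascl4 CA1 with 3557 (3549 to 3565), EGFP GC with 694 (690 to 697) and Ascl4 GC with 318 (316 to 320). These intervals take reads as independent, which reads copied by PCR are not, so they understate even the counting error. They are far narrower than the spread between cells. By the median of cells, EGFP CA1 and Ascl4 CA1 were neighbours that the spread of cells did not part, with 22 of 45 Ascl4 CA1 cells above the EGFP CA1 median. EGFP GC and Ascl4 GC overlapped over most of their range, with 41 of 51 Ascl4 GC cells below the EGFP GC median. Per kilobase of exon, which allows genes to be compared, the summed reads gave 523 CPM per kb in EGFP CA1, rank 44 among 10706 expressed genes with a length. The ranks were 63 in Ascl4 CA1, 703 in EGFP GC with 81.4 CPM per kb, and 1678 in Ascl4 GC with 37.3 CPM per kb. The median of these genes was between 8.17 and 9.26 CPM per kb, so the label of an abundant RNA held in CA1 cells and less so in granule cells.

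The comparison of EGFP CA1 with EGFP GC asks how the neuron types differ without Ascl4. Snhg11 was 6.42-fold higher in CA1, a log2 ratio of 2.68 with 1 CPM added to each value. The background was wide: among 9954 genes expressed in this pair, 30.5% were at least 1.5-fold higher and 57.6% were 1.5-fold apart in either direction, around a median log2 ratio of 0.02. A gene counted as expressed when 25% of the cells of 1 of both groups had a read and its summed level reached 10 CPM in 1 of them. Snhg11 lay toward the end of this distribution, with 4.66% of genes higher. Of the 6 other genes with a CPM at least as high in either group, 0 were as far up. Cell by cell, 43 of 46 EGFP CA1 cells lay above the EGFP GC median, and 2 of 47 EGFP GC cells lay above the EGFP CA1 median. Above 1000 CPM were 39 of 46 EGFP CA1 cells (84.8%, exact Clopper-Pearson 95% interval 71.1 to 93.7) and 13 of 47 EGFP GC cells (27.7%, 15.6 to 42.6). These intervals take cells as independent and leave out differences between animals. Other RNA differed between these groups too, where 27.1% of all genes were at least 1.5-fold lower. Of 9 expressed microglia genes 9 were at least 1.5-fold higher in EGFP CA1, with a median log2 ratio of 1.52, and the median of the list's sum over cells was 617 CPM in EGFP CA1 (range 1.84 to 22349) and 17.3 in EGFP GC (0 to 13782). Of 8 expressed mitochondrial genome genes 6 were higher, and of 11 activity-regulated genes 6 were lower and 1 higher. Over the 46 EGFP CA1 cells, Snhg11 correlated at -0.34 with the microglia sum (0.09 over the 15 cells of the first stretch of title numbers and -0.54 over the 31 of the second), and the part of these RNAs in the step was not tested.

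The step between the cell types was also there under Ascl4, in cells that the previous comparison did not use. The median was 3141 CPM in Ascl4 CA1 and 117.7 in Ascl4 GC, 26.7-fold apart, and the summed reads were 11.2-fold apart. Of 51 Ascl4 GC cells, 20 lay below every Ascl4 CA1 cell. Whether the step differs between EGFP and Ascl4 cells was not tested.

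Of the genes within 250 kb of Snhg11 on chromosome 2, 2 others had at least 10 CPM in EGFP GC and EGFP CA1 alike, and a further pair reached that level in 1 of these groups. Ralgapb, which encodes a subunit of a Ral GTPase-activating complex, had 41.4 CPM in EGFP GC and 26 in EGFP CA1. Rprd1b, a regulator of RNA polymerase II, had 64.3 and 16.3 CPM, a log2 ratio of -1.92. Both lay in the direction opposite to Snhg11. Actr5, which encodes an actin-related protein of a chromatin remodelling complex, lay in the same direction, with 0.00930 CPM in EGFP GC and 12.9 in EGFP CA1. Lbp, a gene for a lipopolysaccharide-binding protein, had 22.7 and 0.377 CPM. Actr5 and Lbp had a read in fewer than 25% of the cells of each group, so they did not count as expressed.

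The second comparison, Ascl4 GC with EGFP GC, shares its EGFP GC cells with the first. Snhg11 was 2.18-fold lower in Ascl4 GC, a log2 ratio of -1.12. Among 9783 expressed genes, 30.7% were at least 1.5-fold lower and 56.3% were 1.5-fold apart in either direction. The median log2 ratio of all genes was -0.08 with an SD of 1.39, and 17.2% of genes were lower than Snhg11, so its ratio lay inside the bulk of the distribution. Of the other genes with a CPM at least as high in either group, 10 (5.65%) were as far down: C1ql2, Dnajb1, Homer1, Nefl, Nefm, Plk2, Ppp1r15a, Rgs4, Srsf7 and Synpr, picked after their values were seen. C1ql2 and Synpr are granule cell genes of the mossy fibre synapse, Nefl and Nefm encode neurofilaments, and Srsf7 is a splicing factor.

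**Figure D3:**
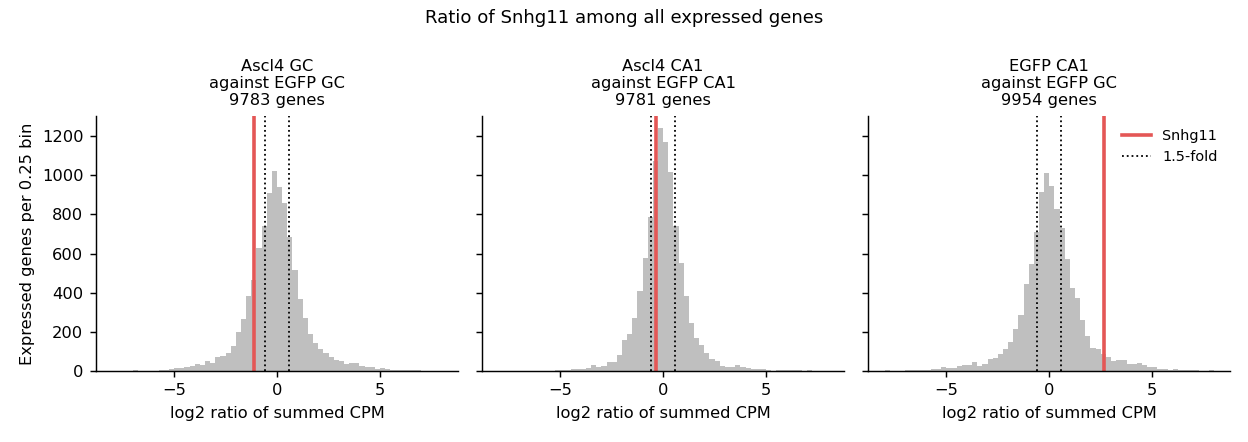
Distribution of the log2 ratios of summed CPM over all expressed genes in each comparison, in bins of 0.25, with ratios beyond 8 placed in the outer bins. The red line marks Snhg11, at -1.12, -0.33 and 2.68 from left to right, and the dotted lines mark a 1.5-fold difference.

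The values of Ascl4 GC sat lower along most of their range and reached further down. At 10 CPM or more were 31 of 51 Ascl4 GC cells (60.8%, 46.1 to 74.2) and 40 of 47 EGFP GC cells (85.1%, 71.7 to 93.8), intervals that overlap. The lower quartile was 4.44 CPM in Ascl4 GC and 54.2 CPM in EGFP GC, and the upper quartile was 400 and 1118 CPM. Of 51 Ascl4 GC cells, 8 lay below every EGFP GC cell and 1 lay above every one. The widest step between neighbouring Ascl4 GC cells on the log scale ran from 9.34 to 33.1 CPM, with 20 cells below and 31 above it. In EGFP GC the widest step was 2.16-fold, from 34.3 to 74.2 CPM.

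Cells with little Snhg11 were seen at equal depth too. After each cell was thinned to 500000 reads, 6 of 51 Ascl4 GC cells and 1 of 47 EGFP GC cells had no Snhg11 read, against 0 of each before thinning. The median cell then held 53 reads in Ascl4 GC and 260 in EGFP GC, against 1576 in Ascl4 CA1 and 1622 in EGFP CA1. The Spearman correlation of Snhg11 CPM with total reads was -0.10 over the 47 EGFP GC cells and -0.27 over the 51 Ascl4 GC cells. By stretch it was -0.52 over 15 and 0.13 over 32 EGFP GC cells, and -0.37 and -0.28 in Ascl4 GC. With the level of Ascl4 itself it was -0.19 over the 51 Ascl4 GC cells and -0.08 over the 45 Ascl4 CA1 cells, whose stretches gave -0.30, 0.05 and 0.14.

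The granule cell direction was the same in both pairings of stretches of title numbers. These pair stretches by order within each group, so they are not shared blocks of cells. In the first stretch the summed level was 928 CPM over 15 EGFP GC cells and 294 CPM over 33 Ascl4 GC cells, a log2 ratio of -1.66. In the later stretch it was 575 CPM over 32 and 347 CPM over 18 cells, a log2 ratio of -0.73. Medians of cells were 547 and 64.4 CPM in the first stretch and 476 and 295 CPM in the later one. The share of cells at 10 CPM or more was 73.3% and 54.5% in the first stretch and 90.6% and 72.2% in the later one.

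Other RNA moved with the groups as well. Of all 9783 expressed genes in this comparison, 25.6% were at least 1.5-fold higher and 30.7% lower. The summed level of 10 microglia genes had a median of 17.3 CPM over EGFP GC cells (range 0 to 13782) and 147.2 CPM over Ascl4 GC cells (0.127 to 12665), with 5 of 9 expressed genes at least 1.5-fold apart, each of them higher. Of the interferon-induced genes, 10 of 10 expressed ones were higher, with medians of their sum of 1.32 and 415 CPM. Of 8 granule cell markers, 4 were at least 1.5-fold lower and 1 higher, and the median of their sum was 3719 CPM in EGFP GC and 2543 in Ascl4 GC. No gene of the microglia and granule cell lists was without a read in either group. Of the 9 expressed protein genes of the mitochondrial genome 8 were at least 1.5-fold higher in Ascl4 GC, with a median log2 ratio of 1.08. The median cell differed little, with a sum of this list of 4630 CPM in EGFP GC and 4942 in Ascl4 GC. The highest cells had 55552 and 204782 CPM. Of 4 expressed oligodendrocyte genes 3 were higher, with a median of 2.69, and the myelin gene Mbp had 438 CPM in EGFP GC and 5754 in Ascl4 GC. The median cell went the other way, with a sum of this list of 238.3 CPM in EGFP GC and 43.5 in Ascl4 GC. Of 6 expressed astrocyte genes 3 were lower and 1 higher. Within the 51 Ascl4 GC cells, Snhg11 had a Spearman correlation of 0.07 with the microglia sum, 0.11 with the interferon sum and -0.14 with the granule cell sum. The stretches differed in sign for the microglia sum, with -0.21 over 33 and 0.37 over 18 cells, and for the interferon sum, with -0.07 and 0.55. The part of these RNAs in the Snhg11 difference was not tested.

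In the third comparison, Ascl4 CA1 with EGFP CA1, Snhg11 differed little. The summed level was 1.25-fold lower in Ascl4 CA1, a log2 ratio of -0.33, and 34.8% of 9781 expressed genes were lower. Of these genes 48.4% were at least 1.5-fold apart in either direction, and Snhg11 was not among them. The medians of cells, 3141 and 3200 CPM, gave a log2 ratio of -0.03. The direction was not the same when stretches of title numbers were paired by order, and the groups share no stretch. In the first stretch the summed level was 4106 CPM over 17 Ascl4 CA1 cells and 3150 over 15 EGFP CA1 cells, a log2 ratio of 0.38. In later stretches Ascl4 CA1 had 2278 CPM over 12 cells and 3825 over 16 cells, against 5181 over 31 EGFP CA1 cells, which together gave -0.73. The counts of cells at 1000 CPM or more, 38 of 45 and 39 of 46, were nearly the same share (84.4% and 84.8%). Of 10 microglia genes, 7 were at least 1.5-fold apart here, each of them higher in Ascl4 CA1, with medians of their sum of 740 CPM in Ascl4 CA1 and 617 CPM in EGFP CA1, and their part in the values was not tested. EGFP CA1 cells also serve in the comparison with EGFP GC, so the values of both comparisons are not independent.

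Summed over the cells that the authors' quality control left out, Snhg11 was lower than over the cells kept in 4 of 4 groups. The summed reads of the 13 EGFP GC cells left out gave 69.3 CPM, those of the 5 Ascl4 GC cells 241, those of the 8 EGFP CA1 cells 702 and those of the 13 Ascl4 CA1 cells 1019. The medians of the cells left out were 31 CPM in EGFP GC, and 520 and 262 CPM in the CA1 groups with EGFP alone and with Ascl4, below those of the cells kept. In Ascl4 GC the median of the cells left out was above that of the cells kept, and 3 of 5 cells left out were at 100 CPM or more, against 27 of 51 kept. Every one of these 39 cells still had a read of Snhg11. Their depth was lower, with median reads between 440912 and 956807.

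Within a group, Snhg11 varied from cell to cell with other transcripts. Over 8298 genes with a read in at least 25% of the cells of every group, the 3 with the highest mean of the 4 Spearman correlations with Snhg11 were Trank1 (mean 0.47), AC149090.1 (0.46) and Grin2b (0.45). Grin2b encodes a subunit of the NMDA receptor and Trank1 encodes a large protein with ankyrin and tetratricopeptide repeats. For Grin2b the correlation was 0.66 and 0.40 over EGFP CA1 and Ascl4 CA1 cells and 0.53 and 0.22 over EGFP GC and Ascl4 GC cells. The median gene had a mean correlation of 0.05, and the central 95% of genes lay between -0.14 and 0.26. The lowest was Ubb, a ubiquitin gene, at -0.38, and Slc25a4, a mitochondrial ADP/ATP carrier, stood at -0.37. In the levels of the groups, only AC149090.1 of these 3 lay in the direction of Snhg11 in all 3 comparisons, with log2 ratios of -0.85 (Ascl4 GC), -0.67 (Ascl4 CA1) and 0.96 (EGFP CA1 against EGFP GC). Trank1 had 416 CPM in EGFP GC and 326 in EGFP CA1, and Grin2b had 266 in EGFP GC and 273 in Ascl4 GC.

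Of the gene lists, that of nuclear speckle and splicing proteins had the highest correlation with Snhg11 in CA1 cells when stretches of title numbers were pooled, though not in every stretch. The summed CPM of its 22 genes had a Spearman correlation with Snhg11 of 0.84 over the 46 EGFP CA1 cells and 0.75 over the 45 Ascl4 CA1 cells, and of 0.43 and 0.23 over the EGFP GC and Ascl4 GC cells. In log2 values Pearson's r was 0.76, 0.67, 0.38 and 0.12 in the same order. Without the 2 cells farthest from the median of the list, Spearman's correlation was 0.82, 0.79, 0.42 and 0.19. By stretch of title numbers it was 0.75 and 0.84 in EGFP CA1, 0.75, 0.29 and 0.96 in Ascl4 CA1, 0.47 and 0.41 in EGFP GC, and 0.24 and 0.18 in Ascl4 GC. Genes of the list with a correlation above 0 numbered 22 of 22 in EGFP CA1, 19 in Ascl4 CA1, 20 in EGFP GC and 18 in Ascl4 GC. Their medians were 0.33, 0.27, 0.12 and 0.14, against 0.09, 0.04, 0.01 and 0.07 for all genes. The medians of all genes are above 0, so a correlation above 0 was common outside the list too. The list holds mRNAs that encode these proteins, and their most abundant members were Srsf7, Sf3b1, Srsf5 and Srsf11. Srsf7 alone correlated with Snhg11 at 0.68 in EGFP CA1 and 0.53 in Ascl4 CA1.

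A list of 15 abundant cytoplasmic mRNAs had negative correlations in summed CPM, of -0.57 and -0.39 in EGFP CA1 and Ascl4 CA1 and -0.38 and -0.36 in EGFP GC and Ascl4 GC. Genes of this list below 0 numbered 14 of 15 in EGFP CA1, 13 in Ascl4 CA1, 13 in EGFP GC and 10 in Ascl4 GC. Their medians were -0.27, -0.14, -0.10 and -0.15, against 0.09, 0.04, 0.01 and 0.07 for all genes. For the sum of the list, Pearson's r of the log2 values was weaker in CA1, at -0.31 and -0.23, and was -0.19 and -0.37 in EGFP GC and Ascl4 GC. Without the 2 cells farthest from the median of the list, Pearson's r in Ascl4 CA1 was -0.00 and Spearman's correlation -0.31. By stretch, Spearman's correlation was -0.49 and -0.57 in EGFP CA1, -0.59, -0.36 and -0.09 in Ascl4 CA1, -0.52 and -0.24 in EGFP GC, and -0.29 and -0.41 in Ascl4 GC. The values compared in a cell are shares of the same library, so a cell with more of some RNAs has less of others. On the authors' normalized signal the correlations of the speckle list were 0.77, 0.62, 0.33 and 0.10 in the order EGFP CA1, Ascl4 CA1, EGFP GC and Ascl4 GC. Those of the cytoplasmic list were -0.34, -0.18, -0.14 and -0.23. Paraspeckle genes, as a sum, stood in summed CPM at 0.27, 0.46, 0.10 and -0.08 in the same order of groups, but at 0.80 in the second stretch of Ascl4 CA1, where the speckle list was at 0.29. Genes for proteins that bind Miat stood at 0.63, 0.41, 0.05 and 0.38, and at 0.83 in the first stretch of EGFP CA1, where the speckle list was at 0.75. The 13 protein genes of the mitochondrial genome stood between -0.20 and 0.12 in the 4 groups.

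**Figure D4:**
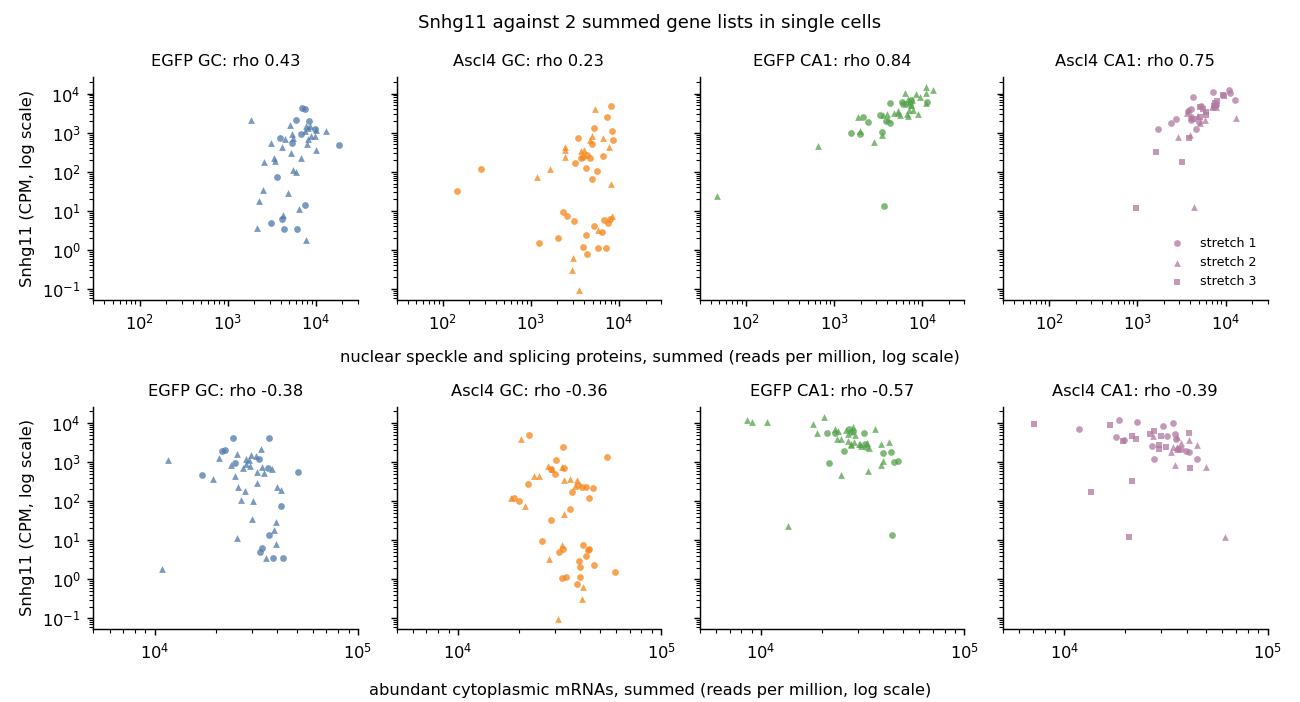
Snhg11 (y axis, CPM on a log scale) against the summed CPM of the nuclear speckle and splicing list (top row) and of the abundant cytoplasmic mRNAs (bottom row), 1 point per cell and 1 panel per group. The points of EGFP CA1 rise together in the top row (0.84), and the Ascl4 GC points show little order (0.23).

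The levels of these lists did not follow the step of Snhg11 between cell types. Of 21 expressed nuclear speckle and splicing genes, 1 was at least 1.5-fold higher and 3 lower in EGFP CA1 than in EGFP GC, with a median log2 ratio of -0.05. Of 14 expressed paraspeckle genes, 1 was higher and 5 lower, with a median of -0.38. Of all genes in this comparison, 30.5% were higher and 27.1% lower. In Ascl4 GC against EGFP GC, 7 of 22 speckle genes were lower and 3 higher, with a median of -0.21, near the 30.7% of all genes that were lower. In Ascl4 CA1 against EGFP CA1, 3 of 20 were lower and 4 higher, against 48.4% of all genes in either direction. Srsf7, which helps choose splice sites, had 1166 CPM in EGFP GC and 419 in Ascl4 GC, a log2 ratio of -1.47. Of 15 paraspeckle genes, 4 were lower and 2 higher in Ascl4 GC, against 30.7% and 25.6% of all genes. Ewsr1, which encodes an RNA-binding protein, had 504 and 272 CPM in EGFP GC and Ascl4 GC.

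Genes tied to the RNAs not analysed here showed no common direction. Beside Meg3, Rian and Mirg in the Dlk1-Dio3 domain, Begain, a postsynaptic protein gene, had 45.3 and 24.9 CPM in EGFP GC and Ascl4 GC, and 96.2 and 83.4 CPM in the CA1 groups with EGFP alone and with Ascl4. Rtl1, a retrotransposon-derived imprinted gene, had 0.0233 and 0.0102 CPM in EGFP GC and Ascl4 GC and 10.4 and 22.9 CPM in EGFP CA1 and Ascl4 CA1. Beside Kcnq1ot1, the tetraspanin gene Cd81 had 416 and 571 CPM in EGFP GC and Ascl4 GC and 268 and 721 CPM in EGFP CA1 and Ascl4 CA1. Tssc4 had 35.3 and 87.8 CPM in EGFP GC and Ascl4 GC, a log2 ratio of 1.29. Nap1l4, a histone chaperone gene, had 187.4 and 140.9 CPM there, a log2 ratio of -0.41, and a ratio of -0.46 in Ascl4 CA1. Of 3 genes for proteins known to bind Miat, Sf1 was lower in Ascl4 GC (72.9 against 141.5 CPM), as was Celf3 (104.9 against 158.4), and Qk had 98.1 against 79.6 CPM. In Ascl4 CA1 against EGFP CA1, 0 of these 3 were 1.5-fold apart, against 48.4% of all genes. In EGFP CA1 against EGFP GC the log2 ratios were 1.07 for Begain and 3.47 for Rtl1. They were -0.63, -0.05 and -0.44 for Cd81, Tssc4 and Nap1l4, and -0.54, -0.51 and -0.52 for Sf1, Celf3 and Qk.

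**Figure D5:**
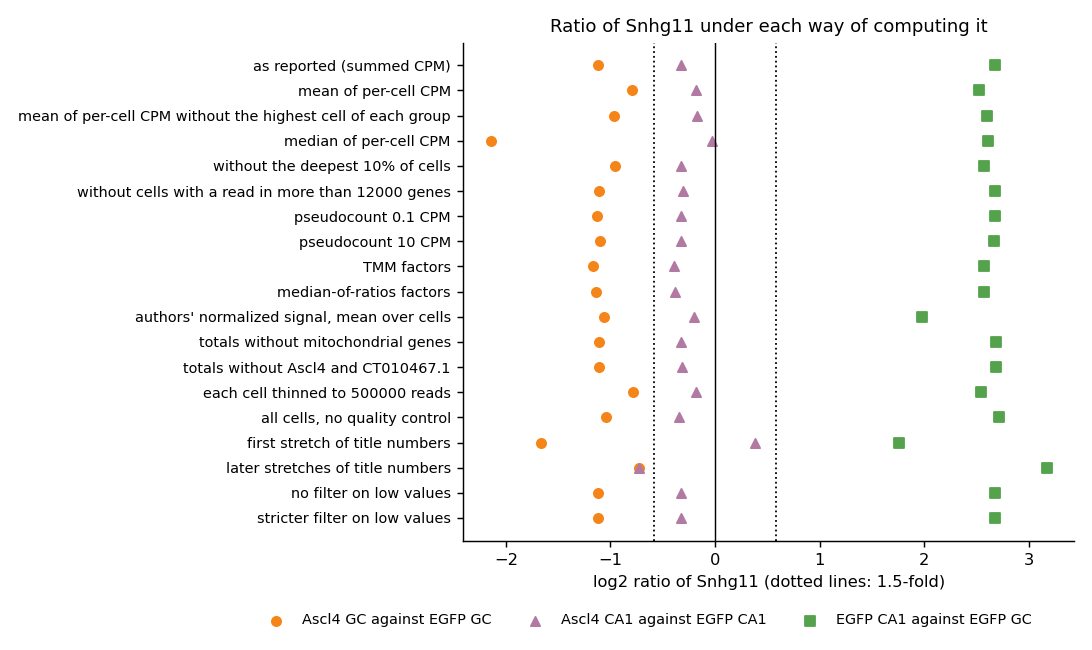
Log2 ratio of Snhg11 in the 3 comparisons (x axis) under each way of computing it (y axis), with dotted lines at a 1.5-fold difference. The granule cell ratio stays between -2.14 and -0.73 and the ratio of CA1 to granule cells between 1.76 and 3.17, while the Ascl4 CA1 ratio runs from -0.73 to 0.38.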

How the data were processed

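Single neurons were sequenced as separate libraries. Per the submitters' processing notes, STAR and HTSeq were used with the build GRCm38.p4, with versions, strand setting and annotation not given in the sources used here. Read counts per gene were deposited by the authors for all 228 cells and again for the cells that passed their quality control, with identical counts for shared cells. The series text states more passing cells than the table holds, and the table was used. The authors also deposited a normalized signal, in which the counts of a cell were divided by 1 factor. Its method, too, was not given in the sources used here. Spike-in rows, 92 in number, held 4 reads and were left out.

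Groups came from cell titles. Reads of a group were summed, scaled to 1000000 and compared as a log2 ratio with a pseudocount of 1 CPM; 1.5-fold was the threshold, and with 1 sample per group no test was run. Deeper cells weigh more in such sums. Replicates in the sense of animals are not named. Intervals (exact Poisson for counts, exact Clopper-Pearson for shares, 95%) take reads or cells as independent and leave out the spread between animals. Ranks and correlations across cells are Spearman's, with no p. Genes were named by a rule: the 8 RNAs, up to 4 genes per list by summed level, and the 3 genes most like a measured RNA. The members, lists and rule were chosen with earlier results of these data known. Gene positions were matched by symbol to GENCODE M21 for 22566 rows. The ratio code was tested on simulated data.

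Alternatives covered other averages, cell filters, pseudocounts, scalings (edgeR 4.0.16 TMM, DESeq2 1.42.0 median-of-ratios), filters on low values, thinning and stretches of title numbers. Scripts ran in R 4.3.3 and Python 3.11.15 (scipy 1.17.1, pandas 2.3.3, numpy 2.4.6, matplotlib 3.10.9).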

Additional observations from a re-analysis of the deposited data

How the results depend on the processing

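In granule cells Snhg11 was at least 1.5-fold lower with Ascl4 under 18 of 18 alternatives. It was at least 1.5-fold higher in EGFP CA1 than in EGFP GC, also under 18 of 18. The 18 include no filter and a stricter filter on low values, which choose genes and cannot change the ratio of Snhg11. In CA1 the Ascl4 ratio was below 0 under 17 of 18 and past 1.5-fold under 1, the later stretches of title numbers, where the count of RNAs past that fold became 1. Log2 ratios are given next in the order Ascl4 GC, Ascl4 CA1 and EGFP CA1 against EGFP GC, where they moved beyond the counting interval of the reported ratio. They were -0.79, -0.18 and 2.52 for the mean of per-cell CPM, -0.97, -0.17 and 2.60 for that mean less the highest cell in each group, and -2.14, -0.03 and 2.61 for the median. They were -0.78, -0.18 and 2.54 for thinned cells, -1.06, -0.20 and 1.98 for the authors' normalized signal, -1.04, -0.34 and 2.71 for all cells, -1.17, -0.39 and 2.57 with TMM, and -1.14, -0.38 and 2.57 with median-of-ratios factors. The first stretch of each group gave -1.66, 0.38 and 1.76, and the later stretches gave -0.73, -0.73 and 3.17. These stretches are paired by order alone, since groups share none. Without the deepest 10% of cells the ratios were -0.96 in GC and 2.57 between cell types. Without cells with a read in more than 12000 genes they were -1.11 in GC and -0.31 in CA1. A pseudocount of 10 CPM gave -1.10 and 2.67 in GC and between cell types, and totals without Ascl4 and CT010467.1 gave -1.11 in GC. The cause of these shifts was not tested. TMM moved the median of all genes from 0.02 to -0.09 between cell types. The genes 1.5-fold apart numbered 5510, 4732 and 5732 as reported, 8811, 8684 and 8995 without the filter, and 2776, 2293 and 3061 with the stricter one, which tested more or fewer genes. Alternatives for the other 7 RNAs and for their sum were not run, since those RNAs are not analysed here. No paired analysis was possible because the replicate numbers are cell titles that no groups share. With 1 sample per group, the spread between animals limits every comparison, and counting error does not show it.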
